A study of Homo sapiens with 4 samples.

Results

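A set of 1264 strong distal peaks was listed for BRG1 lacking the HSA domain (i∆HSA) and overlapped no peak listed for wild-type BRG1 (iBRG1). These peaks are called sites here. Uninduced and negative controls were not analysed, and absence from the iBRG1 list cannot be told apart from binding below detection. The sites were chosen by their values in 2 CUT&RUN peak lists, from the 25371 peaks of the i∆HSA list, of which they are 4.98%. A peak was selected when its deposited score was at least 10, when it overlapped none of the 24212 peaks of the iBRG1 list, when its GC content in hg19 was at least 25%, and when it lay more than 1 kb from every annotated transcript start. The first condition left 4481 peaks, the second 2260, the third 1722 and the fourth 1264. The cells were SW-13, an adrenocortical carcinoma line in which both SWI/SNF ATPases, BRG1 and BRM, are silenced. They were stable clones that express V5-tagged iBRG1 or V5-tagged i∆HSA under doxycycline. Each construct had 2 biological replicates of 300000 cells treated with doxycycline for 24 h, and binding was read with an antibody against V5. Each construct was carried by its own clonal line, so construct and clone cannot be told apart. There was 1 peak list per construct with no value per replicate, so no value below has a replicate error, and every test describes the lists rather than the constructs in general.

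BRG1, encoded by SMARCA4, is an ATPase that slides and evicts nucleosomes as the motor of the SWI/SNF complexes. Its helicase/SANT-associated (HSA) domain is a helix that holds actin-related proteins and joins the motor to the rest of the complex. SWI/SNF often binds at enhancers, where DNA-binding factors such as AP-1 (FOS and JUN dimers) and TEAD proteins bring it to chromatin. The bromodomain of BRG1 binds acetylated histones. In these cells the study reported that both constructs were generally found at promoters, and the rule used here left out peaks close to transcript starts. In CUT&RUN an antibody brings micrococcal nuclease to the tagged protein, and the DNA fragments that the nuclease releases are sequenced. A peak is a stretch of the genome where such fragments pile up.

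The DNA under the strongest of these sites was repetitive. The first sequence shown here is the centre of the site in SEL1L2, one of the highest-scoring. The second, chosen after its values were seen, is the centre of a GC-rich site with a tandem repeat. Both are hg19, plus strand, 5′ to 3′. Capitals mark 1 copy of the repeated unit, which was 15 and 46 bases long and matched the next copy at 100% and 97.8% of its bases.
SEL1L2 intron, chr20:13914947-13915147: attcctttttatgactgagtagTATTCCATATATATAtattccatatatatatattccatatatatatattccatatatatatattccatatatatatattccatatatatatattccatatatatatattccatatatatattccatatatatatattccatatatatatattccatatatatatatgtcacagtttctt
MAEA intron, chr4:1317981-1318181: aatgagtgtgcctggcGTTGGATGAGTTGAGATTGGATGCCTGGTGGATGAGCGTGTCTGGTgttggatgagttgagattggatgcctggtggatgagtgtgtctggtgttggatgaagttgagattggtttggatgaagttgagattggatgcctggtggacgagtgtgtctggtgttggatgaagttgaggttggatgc

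The values that chose the sites are given as a description. The deposited score is a whole number of unstated scale, and the median over the sites was 15 (quartiles 11 and 24) and a maximum of 279. Scores were 20 or more at 432 sites, 50 or more at 81 and 100 or more at 19. Just inside the score limit, 321 sites had a score of 10 or 11, and just outside it 561 peaks that met the other conditions had a score of 8 or 9. GC content had a median of 36.8% (quartiles 30.8% and 43.2%) and reached 68.9%. At the GC limit, 54 sites had 25 to 26% GC and 53 otherwise similar peaks had 24 to 25%. At the limit of distance from transcript starts, 10 sites lay at most 1100 bp away and 11 otherwise similar peaks lay inside it, more than 900 bp away. The median gap to the nearest iBRG1 peak was 30213 bp. It was at most 1 kb for 15 sites and at most 5 kb for 138 (10.9%), and for 190 (15%) it was over 100 kb. The median width was 1588 bp (range 281 to 5757).

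The sites are set beside 2 classes selected by the same score, GC and distance limits. The first is the 1501 strong distal i∆HSA peaks that overlap an iBRG1 peak (shared). The second is the 873 strong distal iBRG1 peaks that overlap no i∆HSA peak (iBRG1-only). GC content was spread more widely in the i∆HSA-only sites than in either class. There were 275 sites (21.8%) under 30% GC, against 62 shared (4.13%) and 21 iBRG1-only peaks (2.41%). At the other end, 102 sites (8.07%) had 50% GC or more, against 40 shared (2.66%) and 9 iBRG1-only peaks (1.03%).

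Repeats were measured after the sequences of the top sites had been seen, so their shares are described without a test, with 95% Wilson intervals that cover counting error only. A tandem repeat was counted where at least 100 of the central 501 bases lay in stretches of 60 bases that matched, at 80% or more, the bases up to 100 further on. Tandem repeats were found at 440 of 1264 i∆HSA-only sites (34.8%, interval 32.2 to 37.5). In windows of the same size 2 kb to either side of these sites the share was 2.41% (1.88 to 3.09). At shared peaks it was 4.86% (3.89 to 6.07) and at iBRG1-only peaks 1.03% (0.543 to 1.95), against 2.47% (1.97 to 3.08) and 1.37% (0.925 to 2.04) in their own flanks. The repeats of the i∆HSA-only sites thus stood in the central window and seldom 2 kb away. At i∆HSA-only distal peaks below the score limit the share was 5.77% (5.40 to 6.17).

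The second kind of repeat was a run of at least 20 bases in which purines and pyrimidines alternate. DNA of this kind can leave the usual right-handed helix. It was present in the central 501 bases of 338 i∆HSA-only sites (26.7%, 24.4 to 29.2) against 3.13% of their flanks, 4.93% of shared and 3.21% of iBRG1-only peaks. With a minimum of 30 bases the shares were 20.0% of i∆HSA-only sites, 2.53% of shared and 1.49% of iBRG1-only peaks. Either kind of repeat was found at 515 sites (40.7%, 38.1 to 43.5), against 5.30% of their flanks, 7.59% of shared and 3.78% of iBRG1-only peaks.

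**Figure D1:**
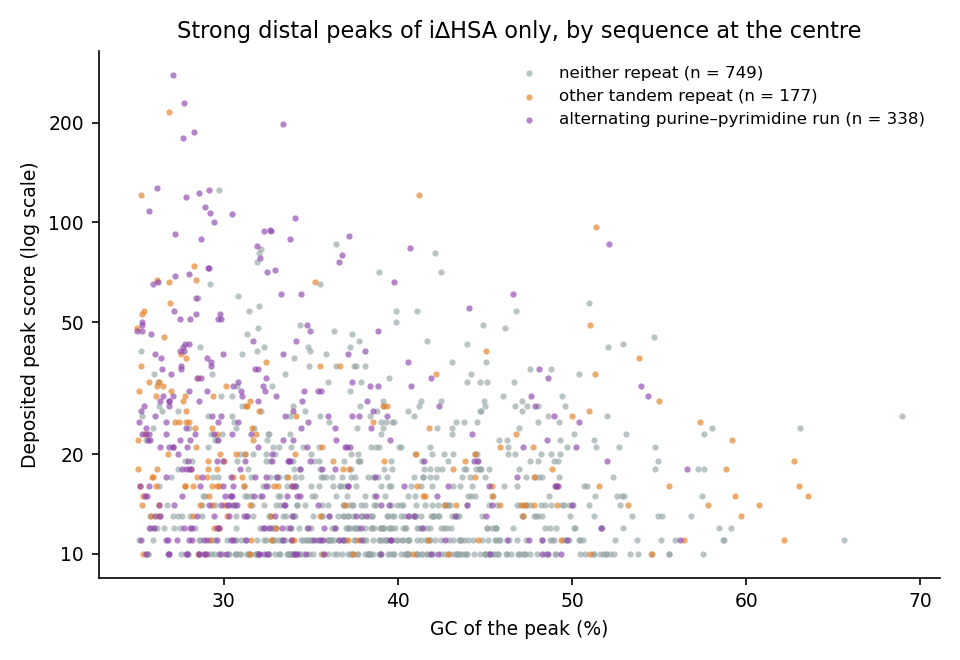
Deposited score (log scale) against GC content (%) for each of the 1264 i∆HSA-only strong distal sites, coloured by the repeat in the central 501 bases. The 338 sites with an alternating run and the 177 with another tandem repeat make up most of the points at high score and low GC, and the 749 sites with neither fill the middle of the GC range.

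By the sequence at their centre the sites fell into 3 kinds. The 338 sites with an alternating run had a median score of 21, a median GC content of 32.0% and a median observed to expected CpG ratio of 0.359. The 177 sites with another tandem repeat had a median score of 18 and a median GC content of 31.7%. The 749 sites with neither (59.3%) had a median score of 13, a median GC content of 39.2% and a median CpG ratio of 0.233. Among the 440 tandem repeats each base took its shortest matching spacing, and the most common spacing of each site was counted. It was 2 bases in 67, 3 to 9 bases in 45, 10 to 19 in 75, 20 to 49 in 214 and 50 to 100 in 39, and in 0 it was 1 base. Spacings of 20 to 49 bases were the most frequent (48.6%). The spacing need not be the length of a repeated unit. Its median was 24 bases in the 263 sites with both an alternating run and a tandem repeat. The repeats with a spacing of 50 to 100 bases had a median GC content of 43.3%, and those of the other lengths had medians from 29.6% to 31.8%.

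Tandem repeats of the i∆HSA-only sites were most frequent around the peak midpoint and fell off gradually. They covered 16.3% of bases at 400 to 500 bp and 4.70% at 900 to 1000 bp to the right of the midpoint. In the 200 bases around it 26.8% of all bases of the i∆HSA-only sites lay in a tandem repeat, against 1.37% at 2 to 3 kb. The same shares were 3.31% and 1.28% at shared peaks and 0.459% and 0.849% at iBRG1-only peaks. AP-1 matches, which are treated further on, were lower at i∆HSA-only sites than in the other classes. They were found in 4.15% of the central 100 bp bins of i∆HSA-only sites, in 9.96% of those of shared peaks and in 9.51% of those of iBRG1-only peaks, over outer levels of 1.59%, 1.63% and 1.47%.

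**Figure D2:**
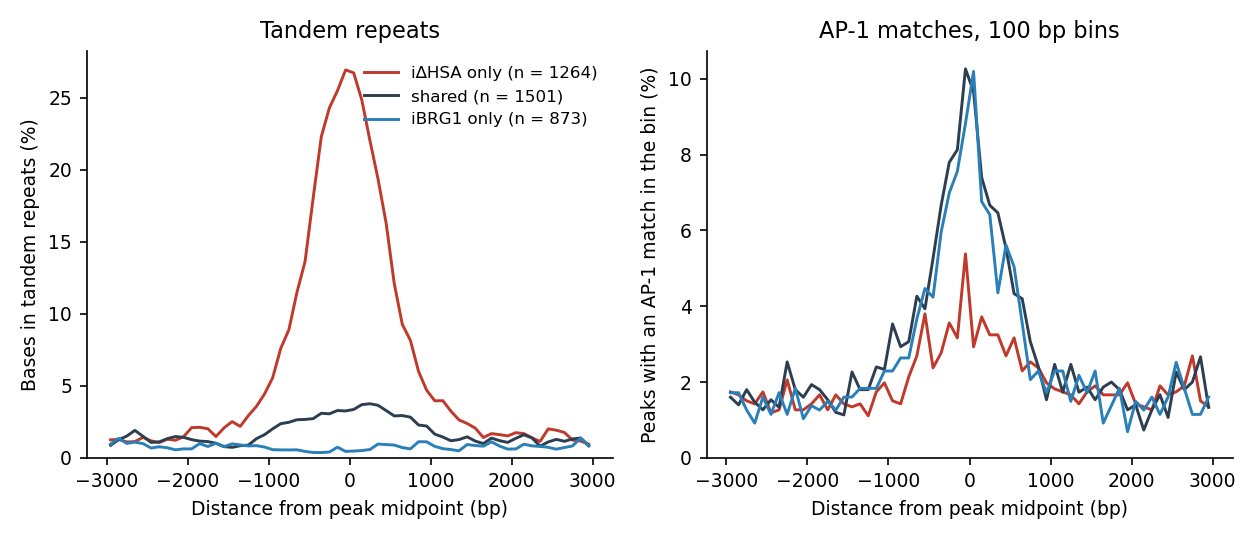
Share of bases in tandem repeats (left, %) and of peaks with an AP-1 match (right, %) in 100 bp bins by distance from the peak midpoint (bp), for i∆HSA-only (red), shared (dark) and iBRG1-only (blue) strong distal peaks. The red line rises to over 26% of bases in the left panel and stays below the other lines at the centre of the right panel.

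The repeat share rose with the score among i∆HSA-only distal peaks taken at all scores. It was 8.92% (463 of 5192) at scores of 1 to 2, 9.80% at 3 to 4, 15.6% at 5 to 9, 31.9% (265 of 832) at 10 to 19, 53.6% (188 of 351) at 20 to 49 and 76.5% (62 of 81) at 50 or more. Shared distal peaks of the same list held repeats at 6.72%, 6.87%, 6.39% and 12.6% from scores of 5 to 9 upwards. The first 15 sites by score held 14 repeats, the first 50 held 42 and the first 100 held 72. The repeat share also moved with GC content, from 76.0% (209 of 275) of the sites with 25 to 30% GC to 19.2% (38 of 198) of those with 40 to 45%, and 32.4% (33 of 102) of those with 50% or more. The GC minimum of the rule had removed 538 peaks of lower GC before the distance limit was applied.

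**Figure D3:**
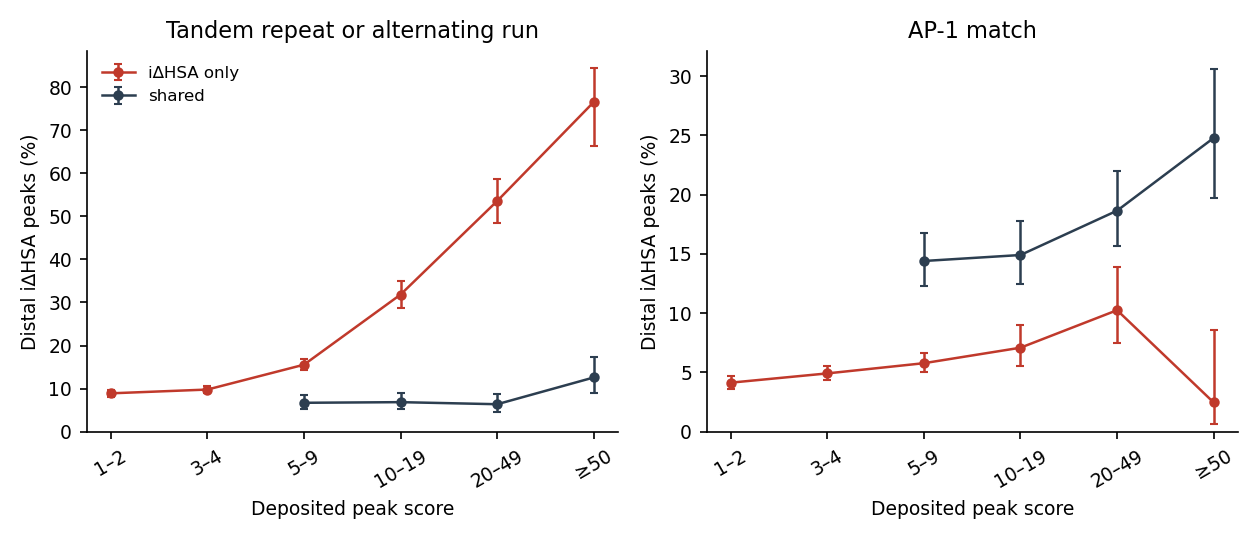
Share of distal i∆HSA peaks (%) with a repeat in the central 501 bases (left) and with an AP-1 match within 100 bp of the midpoint (right), by deposited score, for i∆HSA-only peaks (red) and peaks shared with iBRG1 (dark). Points are shares and bars 95% Wilson intervals, and the repeat share of i∆HSA-only peaks reaches 76.5% at scores of 50 or more while the AP-1 share of shared peaks reaches 24.8%.

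The 15 highest-scoring sites lay outside exons, and 14 of them held a repeat. The first (score 279) lay in an intron of MAP4K1, a kinase of lymphocyte signalling, and 85.1% of its bases were in tandem repeats, with an alternating run of 600 bases. The site in SEL1L2 (score 216, chr20:13914835-13915259) was only 425 bp wide and 47.5% of it was repeat. Another (score 198, chr18:48656878-48658065) was intergenic, 65064 bp from the nearest protein-coding start, that of MEX3C, and 45463 bp from SMAD4, the common mediator of TGF-beta signalling. It held an alternating run of 890 bases within its 1188. The next lay in SYNE2, which links the nucleus to the cytoskeleton (score 188, chr14:64280906-64282336), and 13692 bp from the start of CNKSR3 (score 180, chr6:154845511-154846844).

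Scores from 108 to 127 were held by 9 of these sites. They lay 8882 bp from the start of CD36, a fatty acid receptor (127), in TSPAN3 (125), in SYNPR (125) and in SLC2A13 (123). Others lay in PID1 and AK3 (each between 119 and 123) and in FREM1 (119). The last lay 139378 bp from the start of MSR1 (111) and 71354 bp from that of RPAP3 (108). The remaining site of the 15 (score 230), in an intron of a noncoding gene, was 980909 bp from the nearest protein-coding start, that of SNX16. In the intron of SYNPR, a synaptic vesicle protein, the central 501 bases held neither repeat, although 33.9% of the whole peak was tandem repeat. That site is the only one of the 15 in the kind without a central repeat. The PID1 site had 25.3% GC and a CpG ratio of 2.58, the highest of all the sites.

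Sequence motifs were searched next, on both strands, in the window within 100 bp of each midpoint and in windows of the same length 2 kb to either side. Of 19 motifs, 4 differed between centre and flanks at i∆HSA-only sites (two-sided Fisher's exact test, adjusted over 19 motifs and given as exact adjusted p). Here and below the test pooled the windows as if independent, so the pairing of a centre with its own flanks was not used. The AP-1 motif (TGACTCA) was found at 97 sites (7.67%) against 2.93% of flanks (odds ratio 2.76, exact adjusted p = 3.96e-09), and at 6.18% of all i∆HSA peaks. The E-box CACGTG, bound by MYC, MAX and USF proteins, was found at 54 sites (4.27%) against 1.62% of flanks (odds ratio 2.71, exact adjusted p = 2.23e-05) and 2.33% of all i∆HSA peaks. Lower at the centre were the C/EBP motif (TTGCNNAA) at 6.33% against 9.93% (odds ratio 0.613, exact adjusted p = 0.0012) and the E-box CAGCTG of tissue-restricted bHLH factors at 4.43% against 7.48% (odds ratio 0.574, adjusted p = 0.00122). All i∆HSA peaks held these at 9.39% and 5.54%.

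The AP-1 and CACGTG matches were divided differently over the kinds of site. Of the 97 AP-1 matches, 89 were in the 749 sites with neither repeat, 6 in those with another tandem repeat and 2 in those with an alternating run. Of the 54 CACGTG matches, 32 were in sites with an alternating run, 21 in sites with neither repeat and 1 in a site with another tandem repeat. CACGTG is itself a sequence of alternating purines and pyrimidines. The sequences shown next are a match and its surroundings for the 2 highest-scoring sites with each motif, on the plus strand of hg19. Capitals mark the match nearest the midpoint, and further matches in these sequences are in lower case. The AP-1 sites shown hold no central repeat. Both CACGTG sites instead lie in tandem repeats that cover 501 and 400 of their central 501 bases.
AP-1, SMOX intron, chr20:4116345-4116465: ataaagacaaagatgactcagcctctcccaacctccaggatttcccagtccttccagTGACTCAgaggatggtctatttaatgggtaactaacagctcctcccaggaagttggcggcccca
AP-1, CBL intron, chr11:119089389-119089509: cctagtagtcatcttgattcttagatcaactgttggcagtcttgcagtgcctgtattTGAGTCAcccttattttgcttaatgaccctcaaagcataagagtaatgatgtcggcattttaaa
CACGTG, SLC2A13 intron, chr12:40289820-40289940: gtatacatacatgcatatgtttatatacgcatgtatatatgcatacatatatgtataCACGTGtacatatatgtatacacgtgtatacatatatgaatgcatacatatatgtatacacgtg
CACGTG, near RPAP3, chr12:48027250-48027370: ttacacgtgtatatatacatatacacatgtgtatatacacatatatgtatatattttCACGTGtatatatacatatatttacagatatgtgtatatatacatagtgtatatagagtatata

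With the 515 sites that hold a central repeat left out, a choice made after seeing the data, 2 motifs differed between centre and flanks. AP-1 was at 11.9% of the remaining 749 sites against 2.60% of flanks (odds ratio 5.04, exact adjusted p = 2.13e-16). CTCF, the insulator protein that anchors chromatin loops with cohesin, was at 13 sites (1.74%) against 0.467% of flanks (odds ratio 3.76, exact adjusted p = 0.0368). In all 1264 sites CTCF was at 14 (1.11%) against 0.672% of flanks (odds ratio 1.65, exact adjusted p = 0.382). CACGTG had an odds ratio of 2.13 (exact adjusted p = 0.118), C/EBP 0.796 (adjusted p = 0.471) and CAGCTG 1.01 (adjusted p = 1) without the repeats. The highest-scoring site with a CTCF match had a score of 33 and lay 27826 bp from the start of ROBO3, an axon guidance receptor. Its match, in capitals in the next sequence, is on the minus strand.
CTCF, near ROBO3, chr11:124706997-124707117: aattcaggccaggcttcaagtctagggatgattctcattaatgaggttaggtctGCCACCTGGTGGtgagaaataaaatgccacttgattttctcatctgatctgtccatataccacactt

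Against the other classes the i∆HSA-only sites carried fewer AP-1 and TEAD motifs, and fewer of 3 other motifs. AP-1 was at 7.67% of the sites against 17.9% of shared (odds ratio 0.381, exact adjusted p = 1.82e-14) and 18.1% of iBRG1-only peaks (odds ratio 0.376, adjusted p = 9.92e-12). TEAD (ACATTCC) was at 2.53% against 4.60% (odds ratio 0.539, exact adjusted p = 0.0134) and 7.33% (odds ratio 0.328, adjusted p = 1.96e-06). The motif of GATA factors, searched as AGATAA, was at 9.97% against 15% and 16.8% (exact adjusted p = 0.000352 and 2.32e-05). C/EBP was at 6.33% against 11.8% and 11.6% (exact adjusted p = 6.72e-06 and 0.00012), and CAGCTG at 4.43% against 7.06% and 8.02% (adjusted p = 0.0128 and 0.00273). The flanks of the shared and iBRG1-only peaks held GATA at 12.6% and 17.6%, C/EBP at 10.4% and 11.6%, and CAGCTG at 6.36% and 5.84%. Of the motifs that passed, only CACGTG was more frequent, at 4.27% against 1.60% (odds ratio 2.75, exact adjusted p = 0.000163) and 1.83% (odds ratio 2.39, adjusted p = 0.00576). These 6 motifs were the ones that passed in either comparison. With a score of at least 20 in both lists, which left 157 iBRG1-only peaks, 4 of the 6 no longer passed against that class. These were AP-1 (odds ratio 0.486, exact adjusted p = 0.0665), TEAD (odds ratio 0.39, adjusted p = 0.191), CACGTG (odds ratio 4.36, adjusted p = 0.134) and CAGCTG (odds ratio 0.35, adjusted p = 0.134).

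The differences were smaller with peaks that hold a central repeat left out of every class. AP-1 was at 11.9% of i∆HSA-only sites against 18.5% of shared (odds ratio 0.596, exact adjusted p = 0.00146) and 18% of iBRG1-only peaks (odds ratio 0.615, adjusted p = 0.0141). TEAD still passed against iBRG1-only peaks (3.47% against 6.90%, odds ratio 0.485, exact adjusted p = 0.0147) and not against shared peaks (odds ratio 0.731, adjusted p = 0.515). GATA, C/EBP and both E-boxes passed in neither comparison. CTCF (1.74% against 0.357%, odds ratio 4.93, exact adjusted p = 0.045) and SP/KLF (GGGGCGG, 1.87% against 0.238%, odds ratio 7.98, adjusted p = 0.0142) were higher than at iBRG1-only peaks with the repeats left out. The iBRG1-only shares rest on 3 and 2 of 840 peaks, and neither motif passed against shared peaks (exact adjusted p = 0.119 and 0.333). With repeat peaks included and every class held to 35 to 50% GC, AP-1 passed against shared (odds ratio 0.487, exact adjusted p = 2.12e-05) and iBRG1-only peaks (odds ratio 0.534, adjusted p = 0.0032). CACGTG passed in neither (odds ratios 2.10 and 2.13, exact adjusted p = 0.129 in both). CTCF and SP/KLF were not among the 2 motifs that passed against iBRG1-only peaks in that GC range. At like scores, with repeat peaks included, AP-1 shares were 7.09% of i∆HSA-only and 14.9% of shared peaks at scores of 10 to 19. They were 10.3% and 18.7% at 20 to 49. At 50 or more they were 2.47% (2 of 81, 0.680 to 8.56) and 24.8% (59 of 238), and 62 of those 81 i∆HSA-only peaks held a repeat.

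The i∆HSA-only sites held more CpG than either class, relative to their base composition. The observed to expected CpG ratio had a median of 0.264, against 0.189 at shared and 0.167 at iBRG1-only peaks (two-sided permutation test of rank sums with 100000 resamples, adjusted p = 2e-05 in both, from the smallest p of 1e-05 that the resamples can give). Without repeat peaks the medians were 0.233, 0.187 and 0.167 (permutation adjusted p = 2e-05 in both). GC content, which the rule used, differs between the classes and moves with this ratio. A ratio near 1 marks DNA that has not lost CpG, as in CpG islands, and the median of the sites was far below it.

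The sites lay outside genes more often than the other classes. By midpoint, 534 of 1264 (42.2%) were intergenic, against 30.6% of shared (odds ratio 1.66, exact adjusted p = 7.06e-10) and 28.1% of iBRG1-only peaks (odds ratio 1.88, adjusted p = 9.98e-11). Introns held 709 (56.1%), against 66.7% and 68.4% (exact adjusted p = 1.78e-08 in both), and exons 21 (1.66%), against 2.73% (adjusted p = 0.0705) and 3.55% (adjusted p = 0.00769). Of the sites, 567 (44.9%) lay in a protein-coding gene and 163 (12.9%) in another annotated gene only. The intergenic share was 45.9% in sites with an alternating run, 46.9% in those with another tandem repeat and 39.5% in those with neither.

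Distance from protein-coding starts passed the threshold against neither class at the limits used, and its direction turned with the GC limits. The median was 34830 bp, against 34926 bp for shared (permutation test of rank sums, adjusted p = 0.782) and 40150 bp for iBRG1-only peaks (adjusted p = 0.225). Without a GC minimum the median was 8718 bp above that of shared and 5052 bp above that of iBRG1-only peaks (permutation adjusted p = 5.33e-05 and 0.00422), and at 35 to 50% GC the differences were -3964 and -6750 bp (permutation adjusted p = 0.0275 and 0.00788). There were 259 sites (20.5%) within 10 kb of such a start and 300 (23.7%) over 100 kb away. The sites stood apart from one another, with 44 (3.48%, 2.60 to 4.64) within 20 kb of another site of the set, against 9.19% (7.83 to 10.8) of shared and 8.82% (7.11 to 10.9) of iBRG1-only peaks within their own class.

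Chromosome 19 held more of the sites than of either class. It carried 63 (4.98%), against 1.07% of shared (odds ratio 4.87, Fisher's exact test adjusted over 24 chromosomes, adjusted p = 1.32e-08) and 0.344% of iBRG1-only peaks (odds ratio 15.2, adjusted p = 3.21e-10). Against shared peaks it was the only chromosome that passed. Against iBRG1-only peaks the X chromosome (63 sites, 4.98% against 1.15%, odds ratio 4.53, exact adjusted p = 4.66e-06), 7 (9.65% against 5.50%, adjusted p = 0.00216), 16 (3.56% against 1.60%, adjusted p = 0.0206) and 20 (2.37% against 0.802%, adjusted p = 0.0206) were also higher. Chromosomes 2 (5.93% against 10.7%, exact adjusted p = 0.000492), 14 (3.72% against 6.53%, adjusted p = 0.016) and 18 (1.11% against 4.01%, adjusted p = 0.000176) were lower. With a score of at least 20 in both lists, chromosome 19 was the only one that passed against iBRG1-only peaks (21 of 432 sites, exact adjusted p = 0.0452). The i∆HSA list as a whole was already known to hold larger shares of 19 and X, so these are not independent observations.

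The 63 sites on chromosome 19 had a median GC content of 47.1% and 27 of them (42.9%) held a repeat, while on X the median was 32.7% and 35 of 63 (55.6%) held one. On chromosome 18, 12 of 14 did. Without repeat peaks chromosome 19 passed against both classes (4.81% against 0.937% and 0.357%, exact adjusted p = 1.13e-06 and 5.04e-08). Sites near the ends of chromosomes were described without a test. Within 5 Mb of an end lay 125 sites (9.89%, 8.36 to 11.7), against 4.73% (3.77 to 5.92) of shared and 3.44% (2.42 to 4.86) of iBRG1-only peaks. Of these 125 sites 60.8% held a repeat and 45.6% had 45% GC or more, against 38.5% and 17.2% of the other 1139.

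**Figure D4:**
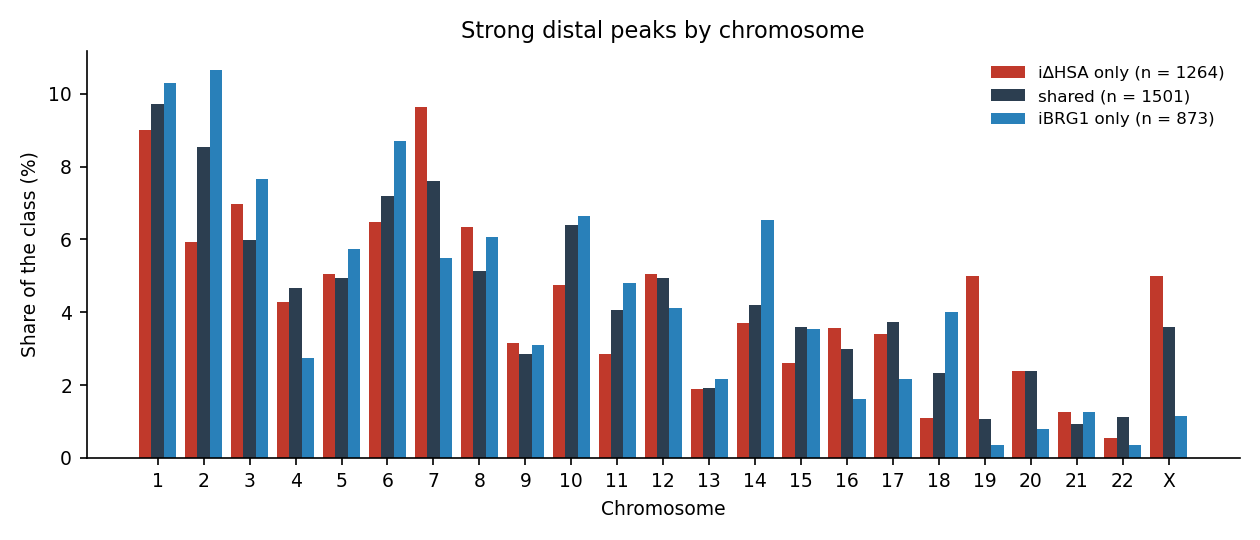
Share of each class (%) on each chromosome for i∆HSA-only (red), shared (dark) and iBRG1-only (blue) strong distal peaks. Chromosome 19 carries 4.98% of the i∆HSA-only sites and 1.07% and 0.344% of the other classes, and X carries 4.98%, against 1.15% of iBRG1-only peaks.

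Of 20136 protein-coding genes, 1767 (8.78%) had a site in the body or within 50 kb, and this share is the background for each list of genes. Shared and iBRG1-only peaks lay as near to 8.57% and 4.52% of genes. Counts of this kind grow with gene length, and the median length of all these genes was 27.2 kb. On chromosome 19, where zinc finger genes are clustered, 12 of 249 ZNF genes (4.82%) had a site, against 198 of all 1480 protein-coding genes there (13.4%).

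The matrix proteases and their inhibitors, which cut or protect the extracellular matrix, had a site near 8 of 34 genes (23.5%), with a median gene length of 49.7 kb. Shared peaks lay as near to 5 of these genes (14.7%) and iBRG1-only peaks to 2 (5.88%). Sites lay 49034 bp from MMP7, a secreted matrix protease (score 17, with an AP-1 match), and 8422 bp from ADAM17, the sheddase of TNF (score 14, with an AP-1 match). Each of these genes had a further, lower-scoring site within 50 kb. Its score was 16 for MMP7, without a central repeat, and 10 for ADAM17, with an alternating run. MMP1, MMP3 and MMP10, neighbours on chromosome 11 that were named after their positions were seen, count the same site (score 10, with an alternating run). Other matrix and adhesion lists were near the background, with 3 of 29 collagens, 3 of 32 integrins and laminins and 3 of 30 cadherins and protocadherins. Sites lay in introns of COL23A1 (score 80, alternating run), COL18A1 (score 29, tandem repeat), CDH8 (score 36, alternating run) and CDH15 (score 25, tandem repeat).

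Among receptor tyrosine kinases 7 of 41 genes (17.1%) had a site, and the median length of the listed genes was 120 kb. Shared peaks also lay as near to 7 of these 41 genes, and iBRG1-only peaks to 3. The highest-scoring sites were in EGFR (score 22), 31155 bp from EPHB2 (score 21) and 18427 bp from TYRO3 (score 12). The first pair held an alternating run and the third an AP-1 match. Ligand and pathway lists had 3 of 30 TGF-beta and BMP genes, among them BMP7 (score 19, in the body), and 4 of 36 Wnt genes, among them LRP6, a Wnt co-receptor (score 23, in the body), and DKK1, a secreted Wnt antagonist (score 19, 11421 bp away).

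Of the genes that encode SWI/SNF itself 3 of 28 had a site, and all 3 lay outside the gene, at 15560 bp from SMARCA4 (score 17), 34368 bp from ARID1B (score 24) and 11323 bp from SMARCC2 (score 11). The coding exons of SMARCA4, which the introduced BRG1 shares, held 0 of the sites, a count bounded by the rule, which drops peaks present in both lists. AP-1 factors had 2 of 21, with a site 45421 bp from JUN (score 51, alternating run) and one 14998 bp from FOSL1 (score 12, AP-1 match). YAP-TEAD genes had 2 of 17, CTCF and cohesin genes 1 of 16, actin and contractile genes 3 of 26, glutamate and GABA receptors 3 of 33, and p53, RB and G1 arrest genes 1 of 29, which was GADD45B. Adrenal steroidogenesis, the programme of the tissue of origin, had 3 of 23, all outside the genes, at 31351 bp from SULT2A1 (score 18), 31375 bp from CYB5A (score 13) and 30059 bp from SCARB1 (score 10).

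Most genes with a site in the body had only 1. There were 491 such genes, 41 had 2 and 8 had 3. The 8 genes were DST, GNG7, ITIH5, NAALADL2, PARD3, RAD51B, SPATA5 and SYNE2. ITIH5, a hyaluronan-binding matrix protein of 108 kb, held sites with scores of 22, 21 and 107, all 3 with repeats, and 0 shared or iBRG1-only strong distal peaks. GNG7, a G protein subunit of 191 kb on chromosome 19, held scores of 13, 100 and 32, of which 2 were repeats, and also 0 peaks of the other classes. In DST, a cytoskeletal linker of 497 kb, the 3 sites had scores of 11, 24 and 19 and no central repeat (0 of 3). The gene also held 4 shared and 6 iBRG1-only peaks. PARD3, a cell polarity protein, held scores of 16, 10 and 13 without a central repeat (0 of 3), beside 2 shared and 2 iBRG1-only peaks. These counts leave out iBRG1 peaks that overlap a weaker i∆HSA peak.

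Sites without a central repeat included strong ones. After SYNPR the highest were intergenic, 150358 bp from the start of CDIN1 (score 86, chr15:36718124-36721469), and in a noncoding gene 714794 bp from the start of CXADR (score 83). Next were sites in MYPN, a sarcomere protein (score 81, chr10:69912665-69914114), and 119823 bp from the start of USP9X (score 81, chrX:40821219-40824875). Such sites can hold repeats off the centre. Tandem repeats made up 32.2% of the whole USP9X peak, 5.72% of the MYPN peak and 0% of the other 2. Sites without a central repeat and with an AP-1 match reached a score of 57 in SMOX, spermine oxidase (chr20:4115907-4116948), 50 in CBL, a ubiquitin ligase of receptor kinases (chr11:119088911-119089803), and 49 in MAP2, a neuronal microtubule protein (chr2:210502575-210503963). The gap from these 3 to the nearest iBRG1 peak was 32720, 10365 and 5842 bp.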

How the data were processed

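CUT&RUN with an anti-V5 antibody was performed by the authors on doxycycline-induced SW-13 clones, with a micrococcal nuclease digestion of 30 min on ice and 12 PCR cycles. Per the study's methods, reads were trimmed with Cutadapt, aligned with Bowtie2, de-duplicated with Picard and processed with SAMtools, and peaks were called with MACS2 (version 2.2 and build hg19 per the submitters' processing notes) and filtered against negative controls and by a minimum score. The deposited lists hold scores below that minimum, so whether they were filtered, and whether replicates were pooled, is not stated. The deposited score is the authors' whole number per peak, of unstated scale. How reads that match several places were treated is not given in the sources used here, and this bears on repeats. The methods give a target depth, the depth reached is unknown, and uninduced and negative controls were not analysed here.

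Overlap meant at least 1 bp. GRCh37 (hg19) and GENCODE release 44 lifted to it gave sequence, transcript starts and genes, and positions are 1-based. Exon, intron or intergenic was read at the peak midpoint. Motif patterns were searched on both strands within 100 bp of the midpoint and 2 kb away. Two-sided Fisher's exact tests and permutation tests of rank sums (100000 resamples) were adjusted by the Benjamini-Hochberg method within 19 motifs, 24 chromosomes, 6 annotation tests or 4 tests of CpG ratio and distance, with a threshold of 0.05, and the tests were checked on simulated data. The repeat-masked share planned as a further measure was not run because the reference carries no masking. The tools were samtools 1.23.1, Python 3.11.15, pysam 0.24.0, pandas 2.3.3, numba 0.67.0, scipy 1.17.1 and numpy 2.4.6.

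The sites, motifs and 15 gene lists were chosen with earlier results of these data known. Named were the 15 highest-scoring sites, the genes with most sites, up to 3 genes per list by the score of their site, and all motifs and chromosomes with an adjusted p under the threshold. Repeats, sites without them, chromosome ends, spacing, ZNF genes, the GC-rich repeat shown and the strongest sites without a repeat or with AP-1 were added after the data had been seen. Sequences planned for C/EBP and CAGCTG, which were lower at the centre, are not shown, and 1 listed gene and 2 sequences chosen by these rules are not reported here. Alternatives are given in the closing section.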

Additional observations from a re-analysis of the deposited data

How the results depend on the processing

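The AP-1 share at the centre against flanks, the intergenic and intron shares, the CpG ratio and the share on chromosome 19 kept their direction and passed the threshold under each alternative run for them. The odds ratio of AP-1 against flanks ranged from 1.83 to 5.04 and that of intergenic sites from 1.43 to 1.81 against shared and from 1.51 to 2.46 against iBRG1-only peaks. Over single motifs and chromosomes, 237 values kept direction and side of the threshold, 46 kept direction and no longer passed, and 1 turned. Some of the 237 could not change, because a lower score limit in the iBRG1 list alone leaves the sites and the shared peaks as they were. No paired analysis was possible because the 2 lists hold no replicate columns, and for the same reason no replicate could be left out. The share of repeat-masked bases was not run. Leaving out repeats and the settings of the repeat measure were chosen after seeing the data. The depth reached is unknown, so whether a site missing from the iBRG1 list was absent or below detection cannot be told apart.

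The number of sites was 432 with a score of at least 20 in both lists, 4341 with at least 5, 606 at 35 to 50% GC and 749 without repeats. The tandem repeat share of the sites was 51.9% and 17.1% at those score limits, 50.7% without a GC minimum, 19.1% at 35 to 50% GC, 40.2% and 27.5% at an identity of 70% and 90%, and 28.1% with a minimum of 200 bases. Over these settings it ranged from 2.76% to 11.8% at shared and from 0.344% to 1.95% at iBRG1-only peaks.

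At 35 to 50% GC, 2 motifs passed against flanks, 2 against shared and 2 against iBRG1-only peaks. Without repeats 2 passed against flanks and 1 against shared peaks, and the odds ratio of CAGCTG against flanks turned to 1.01. Within 250 bp of the midpoint 7 passed against flanks and 10 against iBRG1-only peaks, without a GC minimum 7 against flanks, and with a score of at least 20 there were 2 against iBRG1-only peaks. The number of chromosomes that passed against shared peaks was 2 at 35 to 50% GC, without a GC minimum, with protein-coding transcripts only, with a score of at least 5 and without repeats. Against iBRG1-only peaks it was 4 at 35 to 50% GC, 1 at a score of at least 20 and 5 without repeats.

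The odds ratio of exons against shared peaks passed at 35 to 50% GC (0.364), without a GC minimum (0.464) and with protein-coding transcripts only (0.558), and turned to 1.14 and 1.08 at scores of at least 20 and 5. Against iBRG1-only peaks it no longer passed at 3 kb from starts (0.53), at a score of at least 20 (0.535) or without repeats (0.665). The median distance to protein-coding starts minus that of shared peaks was 694 bp at 3 kb from starts, 8718 bp without a GC minimum, 5129 bp at a score of at least 20 and 1546 bp without chromosomes 19, X and Y, and of these it passed without a GC minimum. It also passed, in the opposite direction, at 35 to 50% GC (-3964 bp). Minus that of iBRG1-only peaks it was 5052 bp without a GC minimum, which passed, and 3733 bp at a score of at least 20, which did not. In the opposite direction it passed at 35 to 50% GC (-6750 bp), by midpoint (-5671 bp), at a score of at least 5 in both lists (-7035 bp) and in the iBRG1 list alone (-3266 bp). Genes near a site were 26.4% and 2.89% at scores of at least 5 and 20, 10.6% without a GC minimum, 4.77% at 35 to 50% GC, 10.3% with protein-coding transcripts only, 10.4% by midpoint, 6.94% at 3 kb from starts, 7.44% without chromosomes 19, X and Y, 3.93% within 10 kb and 2.68% in the gene body. The cause of these changes was not tested.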
